A study of Mus musculus with 4 samples.

Results

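The CHD4 peak list of mouse spermatogonial cells held 60 intervals, of 1849 in all, that were named for 46 genes with a transcription factor name. CHD4 is the motor ATPase of the NuRD complex, which slides nucleosomes and removes acetyl groups from histones. Members were found by words in the deposited gene names: transcription factor, homeobox, forkhead, SRY, nuclear receptor, Kruppel, T-box, helix-loop-helix and ETS. Zfp genes, both GATA genes of the list and the AP-1 genes were left out, and rows that share an interval were joined. The label of sequence-specific factors held for 36 of the 46 genes and 44 of the 60 intervals. The other 10 genes, with 16 intervals, encode partners of such factors, a general factor of RNA polymerase III or a non-coding transcript, and they are described apart. Words also miss factors with other names, and the ETS genes Ets1, Ets2 and Elf2 had intervals but are not among the 46.

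The CHD4 group comprised 2 CUT&Tag samples with an antibody against CHD4, and the IgG group 2 samples with a rabbit antibody against mouse IgG that is labelled as carrying HRP. Both were made from C57BL/6 cells that the labels describe as spermatogonial and that the protocol takes from dissociated testes. No source used here states the animals' age or how spermatogonial cells were separated. In CUT&Tag a transposase tethered to the antibody cuts and tags the DNA beside the bound protein. The files hold 1 call of CHD4 against IgG and no value for a single sample, so no interval has an error between replicates. The cells were profiled in bulk, so binding in few cells and weaker binding in many cannot be told apart.

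Sequence-specific transcription factors bind short DNA motifs and bring co-activators or co-repressors to genes. NuRD is among the complexes that such factors recruit, and the genes of developmental factors are often surrounded by long stretches of regulatory DNA. In undifferentiated spermatogonia, factors such as PLZF, SALL4 and FOXO1 maintain the stem cell pool, and E proteins pair with the ID proteins that hold them inactive.

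Each interval carries a fold, the authors' ratio of CHD4 to IgG signal, taken at its summit of highest fold. CHD4 fragment numbers were recovered from fold and p, and the IgG expectation is the number of fragments expected from IgG, on the scale of the smaller IgG library. Factor-gene intervals had a median fold of 4.53 (quartiles 3.86 and 5.28), against 4.76 (4.04 and 5.66) in the 1789 other intervals. Their median number of CHD4 fragments was 27.5, against 27, and 15 of the 60 rested on fewer than 20 fragments, against 459 of 1789. By these measures factor-gene intervals stood close to the other intervals. At or above the list's upper quartile of 5.64 lay 12 of the 60 folds (20%), against 455 of the 1789 others (25.4%). All 12 lay away from promoters, as did 358 of those 455.

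**Figure D1:**
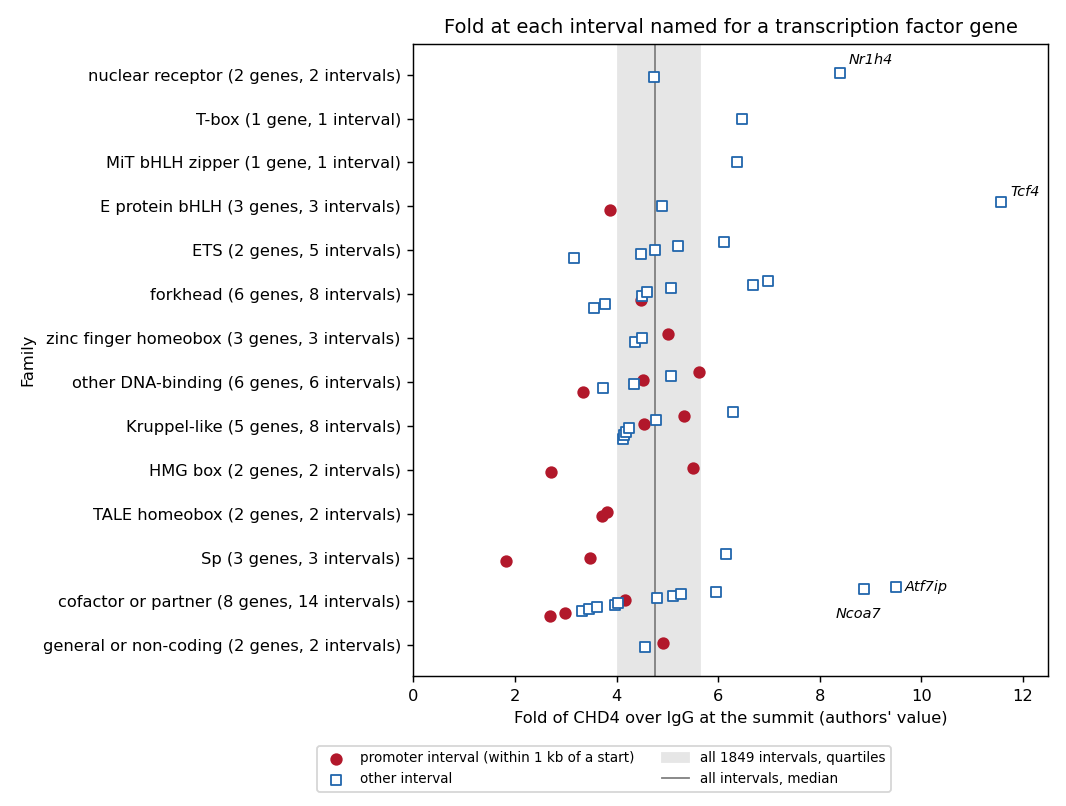
Fold of CHD4 over IgG (x axis, authors' value, no unit) at each of the 60 intervals by gene family (y axis), with promoter intervals as filled circles and others as open squares. The grey band and line give the quartiles and median of all 1849 intervals; the highest values, at Tcf4 (11.6), Atf7ip (9.5), Ncoa7 (8.87) and Nr1h4 (8.39), are open squares.

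Promoter intervals, within 1 kb of a transcript start by the authors' annotation, made up 18 of the 60, or 30% (exact 95% interval 18.8 to 43.2), against 34.3% of the other intervals (32.1 to 36.5). They belonged to 17 genes. An interval contained the start itself at Sp1, Hbp1, Sox5 and Pbx3. These were 4 of 60, or 6.67% (exact interval 1.85 to 16.2), against 16.0% of the other intervals (14.3 to 17.8). RefSeq promoter windows, taken here as the 250 bases before a start, were in the sequence table for 35 of the 46 genes, and 6 of them lay partly under an interval of the same gene. Such overlap held for 10% of the 60 intervals (3.76 to 20.5), against 17.5% of the other intervals (15.8 to 19.3). Intervals of genes without a window could not overlap one. How many other named genes have a window was not counted, so these shares may not be on like terms. The 6 windows are shown because an interval reaches into the annotated promoter sequence. Capitals mark every match, on either strand, of 6 motifs. The GC box was searched as GGGCGG, the CCAAT box as CCAAT and the TATA box as TATAAA. The E-box was searched as CACGTG, the ETS motif as CCGGAAG and the cyclic AMP element, or CRE, as TGACGTCA.
Tcf3: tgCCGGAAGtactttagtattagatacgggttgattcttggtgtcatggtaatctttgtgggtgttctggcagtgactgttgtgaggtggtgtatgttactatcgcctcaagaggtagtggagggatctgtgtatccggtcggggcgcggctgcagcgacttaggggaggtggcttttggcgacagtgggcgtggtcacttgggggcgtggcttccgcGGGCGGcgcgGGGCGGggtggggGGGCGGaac
Sp1: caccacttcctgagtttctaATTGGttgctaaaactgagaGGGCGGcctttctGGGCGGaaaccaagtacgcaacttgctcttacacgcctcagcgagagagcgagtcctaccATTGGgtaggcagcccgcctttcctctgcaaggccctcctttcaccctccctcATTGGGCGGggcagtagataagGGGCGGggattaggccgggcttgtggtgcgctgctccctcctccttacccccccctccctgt
Sp2: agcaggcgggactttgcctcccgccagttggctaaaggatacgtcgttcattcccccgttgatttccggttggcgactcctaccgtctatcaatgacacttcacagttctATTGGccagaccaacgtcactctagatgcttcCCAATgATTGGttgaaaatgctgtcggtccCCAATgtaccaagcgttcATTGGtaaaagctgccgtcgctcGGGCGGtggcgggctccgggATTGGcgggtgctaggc
Hbp1: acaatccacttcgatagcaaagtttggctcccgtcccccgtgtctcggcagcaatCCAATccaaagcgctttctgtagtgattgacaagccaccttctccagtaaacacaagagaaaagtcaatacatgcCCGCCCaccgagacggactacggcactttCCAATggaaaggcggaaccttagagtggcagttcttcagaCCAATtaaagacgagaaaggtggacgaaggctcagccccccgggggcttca
Mrtfb: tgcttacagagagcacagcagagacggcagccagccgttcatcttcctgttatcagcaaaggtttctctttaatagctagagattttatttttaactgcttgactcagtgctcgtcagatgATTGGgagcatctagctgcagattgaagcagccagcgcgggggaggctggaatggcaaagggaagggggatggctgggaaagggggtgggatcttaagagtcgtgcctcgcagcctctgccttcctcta
Gtf3c6: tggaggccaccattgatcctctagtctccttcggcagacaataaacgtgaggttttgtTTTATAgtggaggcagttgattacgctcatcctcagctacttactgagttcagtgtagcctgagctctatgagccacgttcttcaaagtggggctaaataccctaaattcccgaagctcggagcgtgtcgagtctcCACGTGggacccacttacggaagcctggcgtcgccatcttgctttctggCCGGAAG

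These sequences are from RefSeq on GRCm38.p6, whose chromosomes share their coordinates with mm10. Tcf3 is at chr10:80433636-80433885 on the minus strand, and Sp1 at chr15:102406066-102406315 on the plus strand. Sp2 is at chr11:96977689-96977938 on the minus strand, and Hbp1 at chr12:31950246-31950495 on the minus strand. Mrtfb is at chr16:13358171-13358420 on the plus strand, and Gtf3c6 at chr10:40257713-40257962 on the minus strand. The intervals covered between 97 and 126 of the 250 bases, always at the end away from the start. RefSeq lists several starts for some of these genes. All 6 summits lay upstream of the start that ends the window shown, 211 bp at Hbp1, 234 bp at Tcf3, 252 bp at Sp2, 300 bp at Mrtfb, 387 bp at Gtf3c6 and 494 bp at Sp1. By the outer boundary of the RefSeq gene, the intervals at Hbp1, Tcf3, Sp2 and Mrtfb lay inside the gene or across its 5′ end.

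The GC box was in 4 of these 6 windows, in 66.1% of the 313 other windows under an interval and in 32.7% of all 32851 windows. The CCAAT box was also in 4, against 42.5% of the other windows under an interval and 33.9% of all. Sp2 held 6 CCAAT matches and Sp1 held 4 GC boxes, of which 1 shared 2 bases with a CCAAT match. ETS matches stood in Tcf3 and Gtf3c6, an E-box and a TATA box in Gtf3c6 alone, and a CRE in none. The observed over expected ratio of CpG had a median of 0.774 in the 6 windows, 0.781 in the other windows under an interval and 0.374 in all windows. Their median GC content was 54%, against 59.2% in the other windows under an interval and 52.4% in all windows. By median CpG ratio the 6 windows were close to other promoters in the list, and by median GC content nearer to all windows. Their GC content ran from 51.6% to 59.6%. Its quartiles were 54.4% and 65.2% in the other windows under an interval, and 45.2% and 61.2% in all windows. By GC content the 6 windows thus do not separate from either set. The motif matches describe letters in these windows, and binding of a factor there was not measured.

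Promoter intervals of factor genes had a median fold of 4.02, against 4.74 at their other intervals, a difference of -0.723. In the other intervals of the list the medians were 4.32 at promoters and 5.0 elsewhere, a difference of -0.679. At factor-gene promoters the median was 51.5 CHD4 fragments over an IgG expectation of 4.52, and at their other intervals 24.5 over 1. The list's other promoters had 34 fragments over 2.4, and its other non-promoter intervals 25 over 1. Factor genes therefore shared the list's pattern of more fragments but a lower fold at promoters. No test was made of these differences, since intervals are not replicates.

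**Figure D2:**
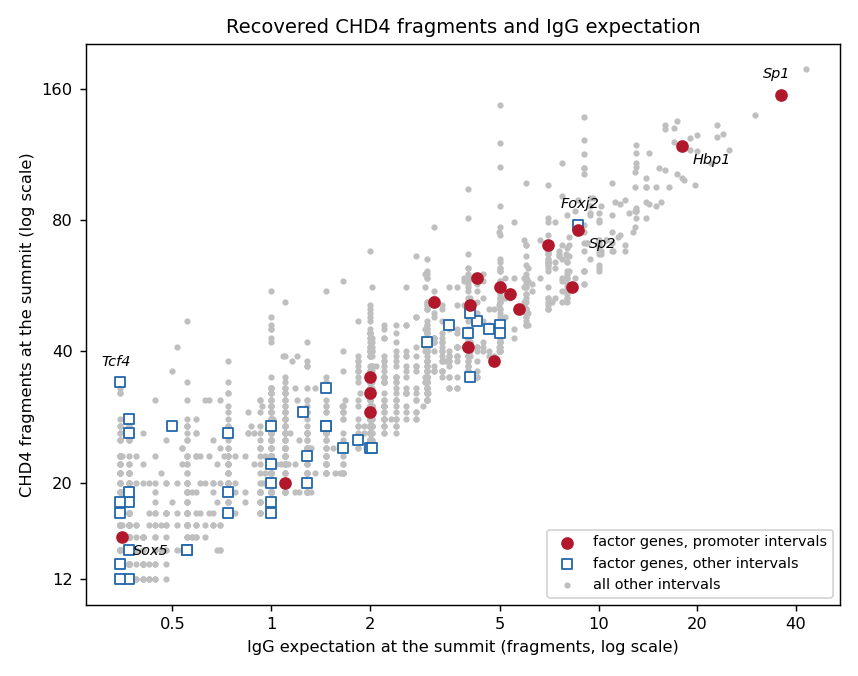
CHD4 fragments (y axis, log scale) against IgG expectation (x axis, fragments on the scale of the IgG library, log scale) at each interval's summit of highest fold, for promoter and other intervals of factor genes and for all other intervals. Sp1 and Hbp1 stand at the upper right with 155 and 118 fragments over expectations of 36 and 18, and Tcf4 at the upper left with 34 over 0.346.

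Sp1 encodes a ubiquitous activator that binds GC boxes. Its interval (chr15:102405764-102406178) contained the transcript start used by the authors, and with 155 CHD4 fragments (exact Poisson interval 132 to 181) was the deepest of all 60. Over an IgG expectation of 36 this gave a fold of 1.82, rank 1848 of 1849. IgG signal was therefore high at the same place. Sp2, a related factor, had a promoter interval of fold 3.47 from 76 fragments over 8.68. Sp3 had no promoter interval, and its only interval lay 59.2 kb from the start with a fold of 6.16 from 17 fragments over 0.346, the lowest expectation of the list.

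Among the Kruppel-like factors, which bind the same kind of GC-rich element, 5 genes had 8 intervals with folds from 4.12 to 6.29. Klf13 had 2 promoter intervals, of fold 5.33 from 35 fragments (chr7:63937438-63938067) and of fold 4.54 from 20 fragments (chr7:63925178-63925467). The first lay 1.16 kb and the second 13.6 kb inside the RefSeq gene, so the second was at an internal start. Klf6, a growth-related factor, had 3 intervals past its 3′ end, with folds of 4.77, 6.29 and 4.14 at 6.6, 145 and 329 kb from the assigned start. The interval at 145 kb lay in the non-coding RNA gene Gm46401. Klf3, Klf7 and Klf9 had 1 interval each, at 40.1, 104 and 6.88 kb, with folds of 4.12, 4.18 and 4.24 from 20 to 25 fragments.

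All 3 genes of the E proteins, the broadly expressed helix-loop-helix factors that pair with tissue-specific ones, were named for an interval, beside 6.1% of all protein-coding genes. This small group was delimited after its members were known, and the share over all helix-loop-helix genes was not counted. Tcf3, which encodes E2A, had a promoter interval (chr10:80433786-80433988) of fold 3.88 from 70 fragments (54.6 to 88.4) over an expectation of 7. Tcf4 had an intronic interval of 2 summits, with folds of 11.6 from 34 fragments and 10.1 from 30 fragments, over expectations of 0.346 and 0.369. Its −log10 q of 13.5 was the highest of the 60, and its fold ranked 4th in the list. Tcf12 had an intronic interval 33.3 kb from the start, with a fold of 4.88 from 13 fragments (6.92 to 22.2) over 0.346. The expectation of 0.346 at Tcf4 and Tcf12 was the lowest that occurs in the list, shared by 131 summits. Tfec, a helix-loop-helix zipper factor of the MITF group, had an intergenic interval 58.6 kb upstream of fold 6.37 from 18 fragments.

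The forkhead factors had 8 intervals in 6 genes, and 1 was at a promoter. Foxo3, a factor of the insulin and PI3K pathway, had 2 intervals near each other in an intron, 59.3 and 50.5 kb from the assigned start. Their folds were 6.99 from 26 fragments over 0.738 and 4.51 from 14 fragments over 0.554. Foxn3, a repressor linked to cell cycle checkpoints, had an intronic interval of fold 6.68 from 19 fragments and a promoter interval of fold 4.48 from 29 fragments (chr12:99393159-99393412). That promoter is an internal start, 170 kb from the 5′ end of the RefSeq gene. Foxj2 had the most fragments of the group, 78 over 8.68, at an interval of 2 summits 8.5 kb upstream with a fold of 3.56. Foxs1, Foxo6 and Foxl1 had intervals past their 3′ ends. These lay 4.71, 57.4 and 114 kb from the assigned starts, with folds of 5.08, 4.6 and 3.76.

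Homeobox genes were of 2 kinds. Pbx3 and Tgif1, TALE homeobox factors that bind DNA beside other homeoproteins or SMADs, had promoter intervals of fold 3.8 and 3.72 from 54 and 41 fragments. The Pbx3 interval (chr2:34372885-34373146) contained the authors' start. Of the zinc finger homeobox genes, Adnp2 had a promoter interval of fold 5.01 from 59 fragments over 4.25. Zeb1, a repressor known for epithelial-mesenchymal transition, and Zfhx3 had intervals 81.4 and 150 kb upstream of their assigned starts, with folds of 4.51 and 4.36 from 14 and 18 fragments. Both of these lay in non-coding RNA genes, Gm10125 and Gm42040.

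Both ETS genes among the 46 lacked a promoter interval. The 3 ETS genes that did have one, Ets1, Ets2 and Elf2, are outside the 46. Etv6, a transcriptional repressor that acts in blood and vascular development, had 4 intronic intervals, 54.6, 165, 170 and 216 kb from the gene's 5′ end. Their folds were 3.16, 4.75, 5.22 and 4.49. They rested on 35, 42, 22 and 12 fragments. Elk3, a ternary complex factor that acts with SRF, had 1 intronic interval of 3 summits (chr10:93287985-93288567). Its folds were 3.37, 4.05 and 6.12, over IgG expectations of 4, 2.95 and 1.48, while CHD4 fragments were 37, 35 and 33. The summits thus differed more in IgG expectation than in CHD4 fragments.

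The 2 nuclear receptors among the 46 genes were named for intervals outside promoters. Nr1h4, the bile acid receptor FXR, had an interval (chr10:89531246-89531705) 1.88 kb inside the gene from its start, with a fold of 8.39 from 27 fragments over 0.498. Nr5a2, which encodes LRH-1, had 1 of fold 4.74 at 119 kb upstream. Sox5, an HMG box factor, had an interval over an annotated start (chr6:144781813-144782009) of fold 5.5 from 15 fragments over 0.351. Hbp1, an HMG box repressor of cell cycle genes, also had an interval over its start (chr12:31950370-31950570), of fold 2.72 from 118 fragments over 18. The 15 fragments at Sox5 were the fewest of any factor-gene promoter interval. Tbx18, the only T-box gene named, had an interval at 112 kb with a fold of 6.48 from 18 fragments over 0.346.

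Among the other DNA-binding factors, E4f1 had the highest fold of any factor-gene promoter interval, 5.63 from 52 fragments (38.8 to 68.2). Promoter intervals of the whole list reached a fold of 10.97. That interval (chr17:24470073-24470275) lay 38 bp from the start of the assigned transcript but 14.8 kb from the 5′ end of the RefSeq gene E4f1. It overlapped the non-coding RNA gene 4833447I15Rik and lay 0.252 kb from the boundary of Pgp, so the assignment to E4f1 depends on the annotation. Gtf2i, which encodes TFII-I, and Mypop, a Myb-like factor, had promoter intervals of fold 4.52 and 3.34 from 51 and 50 fragments. Runx1, a factor of blood development, had an interval 138 kb upstream of fold 5.08 from 27 fragments. Bach2, a basic leucine zipper repressor, and E2f6, a repressor of germ cell genes in somatic cells, had intervals at 58.8 and 29.5 kb with folds of 4.35 and 3.73.

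The genes that do not encode a sequence-specific factor had 16 intervals. Nsd1, a histone H3 lysine 36 methyltransferase, had 3, of which 2 lay upstream and 1, of fold 2.98, at a promoter. Nsd3, of the same enzyme family, had a promoter interval of fold 2.69 from 56 fragments over 8.31. Atf7ip, which stabilises the methyltransferase SETDB1, and Ncoa7 had the highest folds of the group. At Atf7ip the fold was 9.5 from 28 fragments over 0.369, 6.45 kb upstream of the assigned start and in the non-coding RNA gene Gm44140. At Ncoa7 it was 8.87 from 26 fragments over 0.369 within the gene, and 5.11 from 14 fragments upstream of it. Mrtfb, an SRF co-activator, and Gtf3c6 had promoter intervals of fold 4.17 and 4.91 from 56 and 32 fragments. Pnrc1 and C1d, which encode nuclear receptor co-regulators, and the non-coding Pantr1 had intervals at 12.9, 205 and 408 kb, with folds of 3.31, 5.26 and 4.57.

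**Figure D3:**
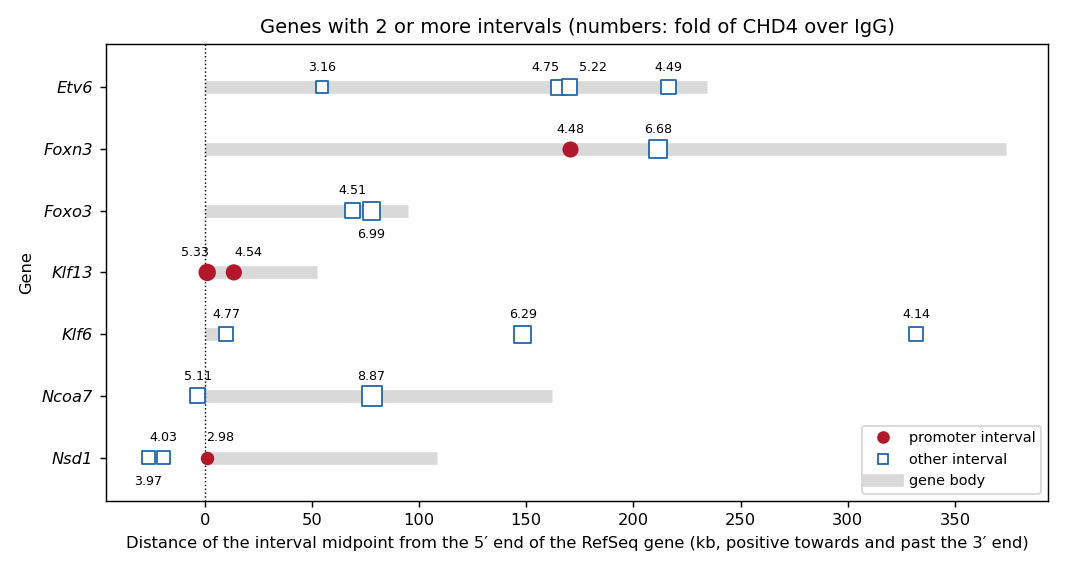
Position of each interval (x axis, kb from the 5′ end of the RefSeq gene to the interval midpoint) in named genes (y axis) with 2 or more intervals. Filled circles are promoter intervals, open squares others, symbol area follows the fold printed beside it, and the grey bar is the gene body; Etv6 holds 4 intervals inside the gene and Klf6 3 past its 3′ end.

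In all, 38 genes had 1 interval and 8 had 2 or more, and those 8 genes held 22 of the 60. Klf13 had intervals at promoters alone, Foxn3 and Nsd1 at a promoter and elsewhere, and Etv6, Foxo3, Klf6 and Ncoa7 were named for intervals outside promoters. The 60 intervals lay on 17 chromosomes. None was on X or Y, which held 20 of the 1849. No factor-gene interval overlapped a small nuclear, transfer or similar short RNA gene, against 47 of the 1789 others.

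Distances to the start of the named gene were described by counts, with no test. The median distance to the assigned start was 10.7 kb for factor-gene intervals, against 5.4 kb for the others. Beyond 50 kb lay 18 of 60, or 30% (exact interval 18.8 to 43.2), against 240 of 1789, or 13.4% (11.9 to 15.1). Beyond 100 kb lay 10, or 16.7% (8.29 to 28.5), against 99, or 5.53% (4.52 to 6.7). These 18 distant intervals had a median fold of 4.58 and a median of 19.5 CHD4 fragments, and 9 of them rested on fewer than 20. The span from one neighbouring protein-coding gene to the next had a median of 211 kb around the 45 protein-coding factor genes, against 111 kb around the 1284 other named genes and 68.6 kb around all 21779. Gene spacing was thus wider around factor genes, and its part in these distances was not tested.

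**Figure D4:**
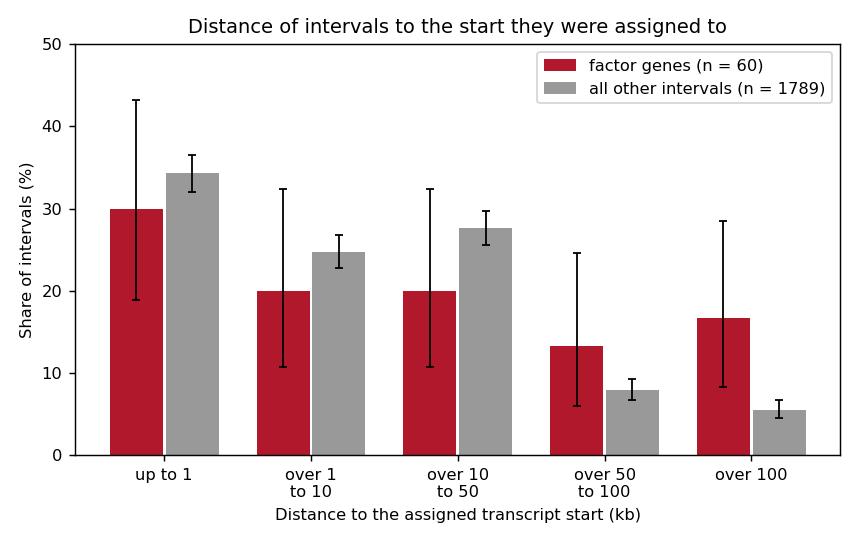
Share of intervals (y axis, percent) by distance to the assigned transcript start (x axis, kb) for the 60 factor-gene intervals and the 1789 others; error bars are exact 95% binomial intervals, which cover counting error only. Beyond 100 kb the bars stand at 16.7% and 5.53%, and up to 1 kb at 30% and 34.3%.

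By RefSeq gene boundaries, 28 of the 60 intervals (46.7%) overlapped the gene they were named for, against 54.6% of the others. Another gene that is not protein-coding was the only one overlapped by 8 (13.3%), against 9.56%, and 24 (40%) overlapped no gene, against 537 of 1789. None lay by these boundaries in a different protein-coding gene only, against 104 of the 1789 others, or 5.81%. The deposited annotation uses other gene models, and it puts the Foxl1 interval in an intron of a transcript assigned to another gene and the Pnrc1 interval in an intron. By distance to gene boundaries, the nearest protein-coding gene was the named one for 55 of 60 (91.7%, 81.6 to 97.2), against 1386 of 1789 (77.5%, 75.5 to 79.4). The exceptions among the 60, listed after their values were seen, were intervals at E4f1, Foxj2, Nsd1, Pantr1 and Zfhx3. Only protein-coding genes were searched, so an interval named for a non-coding gene could not count as a match. Protein-coding genes made up 45 of the 46 factor genes, but 1329 of all 1517 named genes. The 91.7% and 77.5% are therefore not on like terms, and the same mix of genes bears on the 104 intervals above. Measured from RefSeq gene 5′ ends, 10 of the 18 promoter intervals were no more than 1 kb away (55.6%, 30.8 to 78.5). At other genes this held for 442 of 613 (72.1%, 68.4 to 75.6). The remaining 8 of the 18 were at transcript starts inside or beyond the RefSeq gene, at Klf13 (both), Nsd1, Gtf2i, Sp2, E4f1, Mrtfb and Foxn3.

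Counts by family were read against the share of all protein-coding genes. Of 21779 such genes, 6.1% were named for an interval, 2.57% for a promoter interval and 1.19% for an interval that contains a start. Of the families given by the words of the rule, forkhead genes were named in 6 of 44 cases (13.6%, exact interval 5.17 to 27.4) and Kruppel-like genes in 5 of 17 (29.4%, 10.3 to 56.0). ETS genes reached 5 of 26 (19.2%, 6.55 to 39.4), counting Ets1, Ets2 and Elf2. Sox genes were named in 1 of 20 cases, T-box genes in 1 of 17 and nuclear receptor genes in 3 of 47, counting Esrrg, shares of 5%, 5.88% and 6.38% that stood near the background. By promoter intervals, 1 of 44 forkhead, 1 of 17 Kruppel-like and 3 of 26 ETS genes were named. Of the 9 Sp genes 3 were named, of 10 zinc finger homeobox genes 3, and of 20 TALE homeobox genes 2. These groups, like the E proteins, were delimited after their members were known. Shares over all helix-loop-helix and all homeobox genes, which the rule's words also cover, were not counted. No set was tested.

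Of 31 transcription factor genes known from spermatogonia and their progeny, 1 was named, Tcf3, or 3.23% (exact interval 0.0816 to 16.7), an interval that holds the 6.1% of all protein-coding genes. Of 25 genes known from somatic cells of the testis, among them the steroid enzyme gene Hsd3b1, none was named, which allows a share up to 13.7% and so also holds 6.1%. Neither list is shown to differ from that background. That count leaves out Gata4 and Gata6, factors of Sertoli and Leydig cells that are outside the 46 genes by rule and did have intervals in the list. Dmrt1 stood in both lists. Zbtb16, Sall4, Foxo1, Etv5, Id4 and Sohlh1 thus had no interval in this call. The list reached down to 12 CHD4 fragments and up to a q of 0.0492, so a gene without an interval is not shown to lack CHD4, and peak calls do not check the labelled cell type.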

How the data were processed

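The genome build was mm10 and the tools were MACS2 2.1.2, Bowtie2 2.2.5 and Trim Galore 0.5.0, per the submitters' processing notes. No source used here states how replicates were joined. The deposited list holds 2066 summits in 1849 intervals, with the authors' fold (a ratio of CHD4 to IgG), its log2, −log10 p and −log10 q, and a deposited score of 10 times −log10 q. The largest q was 0.0492. The members, their families and the gene lists were chosen with earlier results of these data known. An interval took the values of its summit of highest fold. CHD4 fragments were recovered on the model that fold is (0.429 times the fragments, plus 1) over (IgG expectation plus 1), with p from a Poisson distribution. All 2066 summits gave 1 whole number of fragments to within 0.0005 on −log10 p, and the best other scale solved 12.5% of 40 summits. Gene boundaries came from a RefSeq table of GRCm38.p6, in which 99.9% of named genes were found. Promoter windows came from RefSeq on the same assembly. Shares have exact 95% binomial intervals and fragments exact Poisson intervals, both covering counting error only. No test was planned or run, since the table has no value per sample. Genes named in the text are the 15 highest folds, the 10 highest fragment numbers, starts under an interval, genes with 2 or more intervals and listed markers; the rest are named within their family, and 1 gene counted in the totals is not reported here. Work was done in Python 3.11.15 with SciPy 1.17.1 and pandas 2.3.3, and the recovery of fragments was tested on simulated data.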

Additional observations from a re-analysis of the deposited data

How the results depend on the processing

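Of 26 alternatives over 5 results, 20 stayed within the bounds of the reported value. These were its exact or order-statistic 95% interval, 1.5 times a count, or, for the promoter difference, the intervals of both medians combined. Only that difference has a direction, and no alternative turned it round. Leaving out intervals on short RNA genes could not change the 60, since none overlapped one. The number of factor genes, 46, was 17 with intervals within 1 kb of a start and 27 within 10 kb. The promoter share of 30% was 6.67% for intervals that contain the start and 10% for overlap with a RefSeq promoter window. Without the added 1, the median fold of 4.53 was 7.2 and the promoter difference of -0.723 was -4.4; these and the RefSeq windows were among alternatives chosen after seeing the data. These changes follow from the alternatives' own construction. Counting intervals with any summit at a -log10 q of at least 2 there were 45, of 36 genes; by the summit of highest fold there were 44, since 1 Etv6 interval passed by its lower-fold summit. No replicate could be left out, because the table has no value per sample. No paired analysis was possible because the peak list carries no replicate columns.

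Depth limits every interval: CHD4 fragments ranged from 12 to 155, and at Tcf4, Tcf12, Sp3, Tbx18 and Pantr1, which share the lowest IgG expectation, folds from 4.57 to 11.6 differ through CHD4 fragments alone.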
